A study of Mus musculus with 14 samples.

Results

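Genes for proteins of the mitochondrial ribosome (mitoribosome) were examined in brain and skeletal muscle of male C57BL/6J mice fed 3 diets from middle age. Members were the genes whose symbol in the array's probe annotation was Mrpl or Mrps followed only by a number. This gave 106 probes for 73 genes, of 25697 probes and 16593 gene symbols in all. Of the 73 genes, 48 encode proteins of the large subunit, 24 encode proteins of the small subunit, and 1, Mrps36, encodes a subunit of the 2-oxoglutarate dehydrogenase complex in spite of its name. Mrps30 was counted with the large subunit, where its protein lies. By descent, 44 members have a counterpart in the bacterial ribosome, 27 are specific to mitochondria and 2 were not classed.

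From 13 months of age the mice received β-lapachone at 0.066% of the normal diet (βL), calorie restriction at 70% of the control amount of food (CR), or the normal diet at will (C). How long the mice had been on the diets, and their age at sampling, are not given for the arrays. β-Lapachone is a quinone that the enzyme NQO1 reduces at the cost of NADH. Biotin-labelled cRNA made from total RNA was hybridised to 14 single-colour Illumina bead arrays, 6 of brain with 2 for each diet, and 8 of muscle with 3 for βL, 3 for CR and 2 for C. The muscle that was taken is not named in the labels, and nothing says that the arrays of a group came from separate mice. The p-values therefore reflect only how far these samples scatter, and part or all of that scatter may be technical. The small number of arrays limits the precision.

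Mitoribosomes translate the few proteins that mitochondrial DNA encodes, all of which are parts of the respiratory chain and ATP synthase. Their RNA comes from the mitochondrial genome, but every protein is encoded in the nucleus, made on cytosolic ribosomes and imported. The large subunit carries the peptidyl transferase centre, where peptide bonds form, and the exit tunnel, while the small subunit reads the mRNA. Muscle and brain both depend heavily on oxidative phosphorylation. The ETS-family factor GABP, NRF1 and YY1 are known regulators of nuclear genes for mitochondrial proteins.

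Promoter windows from 250 bases before to 30 bases after the transcription start were available for 64 of the 73 members (RefSeq, mouse build GRCm38.p6). Mrpl4, Mrpl13, Mrpl15, Mrpl19, Mrpl38, Mrpl54, Mrps28, Mrps34 and Mrps35 had no window. Matches were sought on both strands to CCGGAAG for the ETS family, to AAGATGG for YY1 and to the consensus motif of NRF1. The end of the ETS motif and the start of the YY1 motif share 3 letters, so that their matches can overlap. The ETS motif was in 22 of the members' 70 windows (31.4%), against 8.45% of all 32851 windows in the table. The NRF1 motif was in 12 of the 70 (17.1%), against 4.41% of all windows, and the YY1 motif in 9 (12.9%), against 5.61%. At least 1 of the 3 was in 35 of the 70 windows (50%), against 16.9% of all windows. A match is a description of the letters and not of binding.

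Shown here are windows of the member with the largest tissue difference (Mrpl42), of 3 more with large differences and a match (Mrpl14, Mrpl33 and Mrps21), of Mrpl49, which was higher in brain, and of Mrps11. Capitals mark the matches, and a match on the opposite strand is printed as its reverse complement. Mrpl42 (chr10:95501920-95502199, minus strand) held none of the 3 motifs, and Mrpl14 (chr17:45686099-45686378, plus strand) held the NRF1 motif just after its start. Mrpl33 (chr5:31613701-31613980, plus strand) held the ETS motif, and Mrps21 (chr3:95871485-95871764, minus strand) held both an ETS and an NRF1 motif. Mrpl49 (chr19:6057726-6058005, minus strand) held the YY1 motif 2 times. Mrps11 (chr7:78782881-78783160, plus strand) held it once, and 101 bases of its window also belong to the window of Mrpl46, which lies head to head with it.
Mrpl42: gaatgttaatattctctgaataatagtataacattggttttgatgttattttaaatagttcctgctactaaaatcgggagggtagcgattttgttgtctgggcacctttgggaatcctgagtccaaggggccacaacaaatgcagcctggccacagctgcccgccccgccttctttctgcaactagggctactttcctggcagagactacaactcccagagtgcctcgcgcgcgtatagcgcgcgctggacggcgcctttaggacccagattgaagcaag
Mrpl14: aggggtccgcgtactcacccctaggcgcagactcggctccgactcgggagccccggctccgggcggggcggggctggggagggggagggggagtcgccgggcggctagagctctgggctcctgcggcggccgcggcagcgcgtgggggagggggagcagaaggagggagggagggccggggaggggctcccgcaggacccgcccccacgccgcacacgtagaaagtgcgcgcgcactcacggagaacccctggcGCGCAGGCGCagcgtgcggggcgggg
Mrpl33: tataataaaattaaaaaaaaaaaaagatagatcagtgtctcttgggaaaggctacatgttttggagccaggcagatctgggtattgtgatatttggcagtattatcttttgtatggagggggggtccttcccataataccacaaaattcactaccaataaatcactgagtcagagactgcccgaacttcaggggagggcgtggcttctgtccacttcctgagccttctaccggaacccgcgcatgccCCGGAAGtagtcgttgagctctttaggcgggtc
Mrps21: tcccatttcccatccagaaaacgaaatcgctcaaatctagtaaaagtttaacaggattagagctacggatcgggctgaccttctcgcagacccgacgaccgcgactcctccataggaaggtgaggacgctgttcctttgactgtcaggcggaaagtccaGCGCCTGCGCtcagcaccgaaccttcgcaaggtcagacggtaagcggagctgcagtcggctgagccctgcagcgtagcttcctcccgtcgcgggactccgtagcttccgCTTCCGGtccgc
Mrpl49: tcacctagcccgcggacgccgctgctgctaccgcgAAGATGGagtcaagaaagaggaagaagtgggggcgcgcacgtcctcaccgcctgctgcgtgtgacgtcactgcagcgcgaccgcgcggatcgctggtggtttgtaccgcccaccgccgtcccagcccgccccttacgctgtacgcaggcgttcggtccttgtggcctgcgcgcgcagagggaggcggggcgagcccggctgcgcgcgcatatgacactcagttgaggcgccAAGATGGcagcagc
Mrps11: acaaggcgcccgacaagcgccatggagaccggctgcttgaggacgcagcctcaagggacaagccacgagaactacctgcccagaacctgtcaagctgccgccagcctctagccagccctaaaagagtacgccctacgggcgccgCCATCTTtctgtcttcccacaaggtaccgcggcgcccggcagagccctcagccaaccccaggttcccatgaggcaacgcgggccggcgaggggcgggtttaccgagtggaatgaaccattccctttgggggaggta

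Mrps11 and Mrpl46 were the only pair of neighbouring members on 1 chromosome, and the 73 genes were spread over 17 chromosomes. Among the windows of members called lower in brain, 27 of 57 (47.4%) held at least 1 motif, and among those of the other tested members 6 of 9 (66.7%) did. The NRF1 motif was in 7 of 57 windows (12.3%) of the members lower in brain and in 4 of 9 (44.4%) of the other tested members. The ETS motif was in 18 (31.6%) and 3 (33.3%) of the same windows, and the YY1 motif in 7 (12.3%) and 1 (11.1%). These shares were not tested.

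Median bead intensity before normalization was 79.9 to 127 in brain and 150 to 165 in muscle, with 53.9 to 55.4% of probes above background in brain and 43.3 to 45.9% in muscle. Member probes were above background in similar number, 90 to 92 of the 106 on a brain array and 89 to 92 on a muscle array. Of 7 genes that mark brain, 5 were above background on every brain array, while Snap25 and Nefl were not on any. Camk2a and Mbp were also above background on every muscle array. All 8 markers of skeletal muscle were above background on every muscle array. Of these, Acta1 and Pvalb were also above background on every brain array, and Atp2a1 on 5. Replicate 1 of the muscle C group stood apart. It correlated with the other muscle arrays at a mean r of 0.971, against 0.977 to 0.984 for the others, 8 of 11 liver genes were above background on it and on no other muscle array, and slow-fibre genes summed to an intensity of 2289, against 34830 to 213800 on the others. Muscle results of the members are given with and without that array where it matters.

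A gene was tested if a probe was above background on at least 2 arrays, and was represented by its brightest probe. This left 67 members of 10827 genes for the comparison of tissues, 67 of 9956 within brain and 66 of 8898 within muscle. Mrpl15, Mrpl19, Mrpl21, Mrpl32, Mrps14 and Mrps36 were not above background on any array of either tissue and were not tested. Mrpl45 was above background on 2 brain arrays and 1 muscle array, and Mrpl39 on 5 brain arrays and 2 muscle arrays. The other 65 were above background on all 14 arrays. All values below are log2 of background-corrected, quantile-normalized intensity, and a difference of 1 is 2-fold. A gene was called when the adjusted p of limma's moderated test was below 0.05 (Benjamini-Hochberg over all genes tested).

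Transcripts of most mitoribosomal proteins gave a lower normalized intensity in brain than in muscle. Averaged over the diets, 58 of 67 members were called lower in brain and 3 higher, while 6 were not called. Over all genes tested, 44.6% were called lower in brain and 38.2% higher, so that a call in itself was common here. The median difference of the members was -0.86, which is 1.81-fold lower in brain, against -0.10 for all genes. Arrays of the tissues did not overlap for 55 members lower in brain and 2 higher, against 35.3% and 30.5% of all genes. In these bulk samples fewer cells of a type and less RNA per cell cannot be told apart. Leaving out replicate 1 of the muscle C group gave 58 lower, 3 higher and a median of -0.90.

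**Figure D1:**
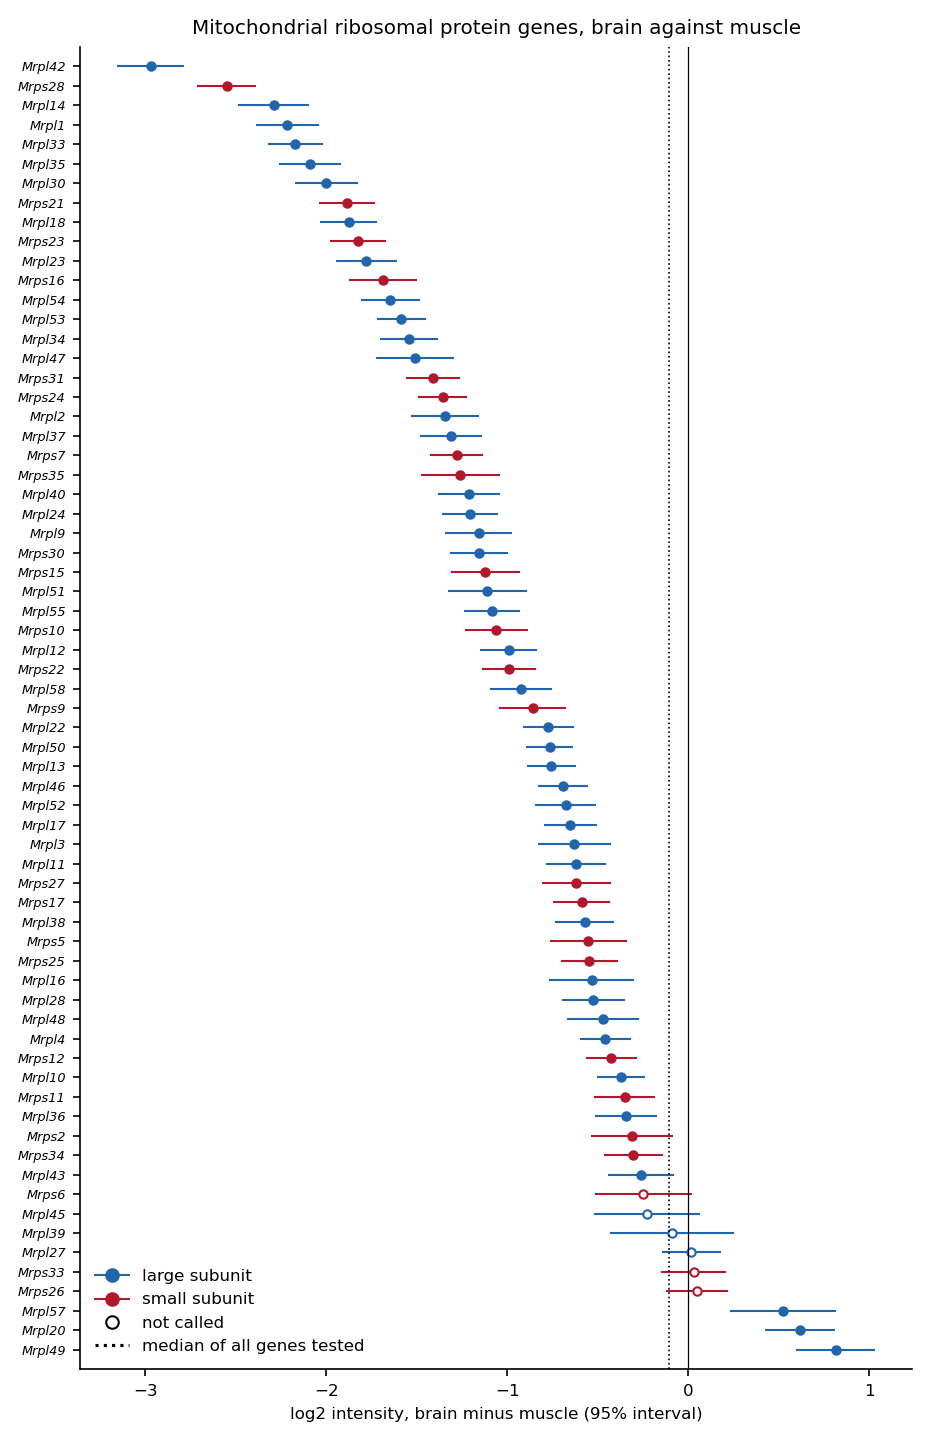
Difference in log2 intensity, brain minus muscle, for each of the 67 members tested, with its 95% interval. Blue is the large and red the small subunit, open points were not called, and the dotted line is the median of all genes. Of the 67, 58 lie to the left of 0 and were called, and 3 at the bottom lie to the right and were called.

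Mrpl42, a mitochondria-specific protein of the large subunit, differed most. Its lowest, median and highest log2 intensity were 9.87, 10.05 and 10.13 in brain and 12.78, 13.01 and 13.17 in muscle. No brain array came near any muscle array, and the difference was -2.97 (SE 0.08, limma adjusted p = 3.9e-12), or 7.84-fold lower in brain. With other ways of processing it ranged from -3.589 to -2.505. Mrps28, the small-subunit counterpart of bacterial S1, ran through 8.34, 8.44 and 8.57 in brain and 10.78, 10.95 and 11.15 in muscle. The difference of Mrps28 was -2.55 (SE 0.07), 5.86-fold lower in brain. Mrpl14, which helps to join the subunits, measured 9.12, 9.28 and 9.31 in brain and 11.35, 11.52 and 11.79 in muscle, a difference of -2.29 (SE 0.09). In each of these genes every brain array was lower than every muscle array.

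Further bacterial-type members were lower by similar amounts. Mrpl1, the protein of the L1 stalk that guides spent tRNA out, had 8.09, 8.23 and 8.36 in brain and 10.23, 10.44 and 10.70 in muscle, a difference of -2.22 (SE 0.08). A separate, dimmer probe for Mrpl1 gave -0.99, also called, and was above background on only 2 brain arrays. Mrpl33, a small protein of the large subunit, had 10.95, 11.03 and 11.23 in brain and 13.09, 13.24 and 13.31 in muscle. Its difference was -2.17 (SE 0.07), and a separate probe for it gave -2.25. Mrpl35 lay at 6.32, 6.46 and 6.56 in brain and at 8.38, 8.51 and 8.77 in muscle, a difference of -2.09 (SE 0.08). Mrpl30 measured 9.71, 9.81 and 10.06 in brain and 11.62, 11.84 and 12.05 in muscle, a difference of -2.0 (SE 0.08). Mrps21, a protein of the small subunit, had 9.81, 9.97 and 10.30 in brain and 11.69, 11.91 and 12.03 in muscle, a difference of -1.89 (SE 0.07). With this processing, 30 of all members were lower in brain by at least 1 and 6 by at least 2 log2 units.

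**Figure D2:**
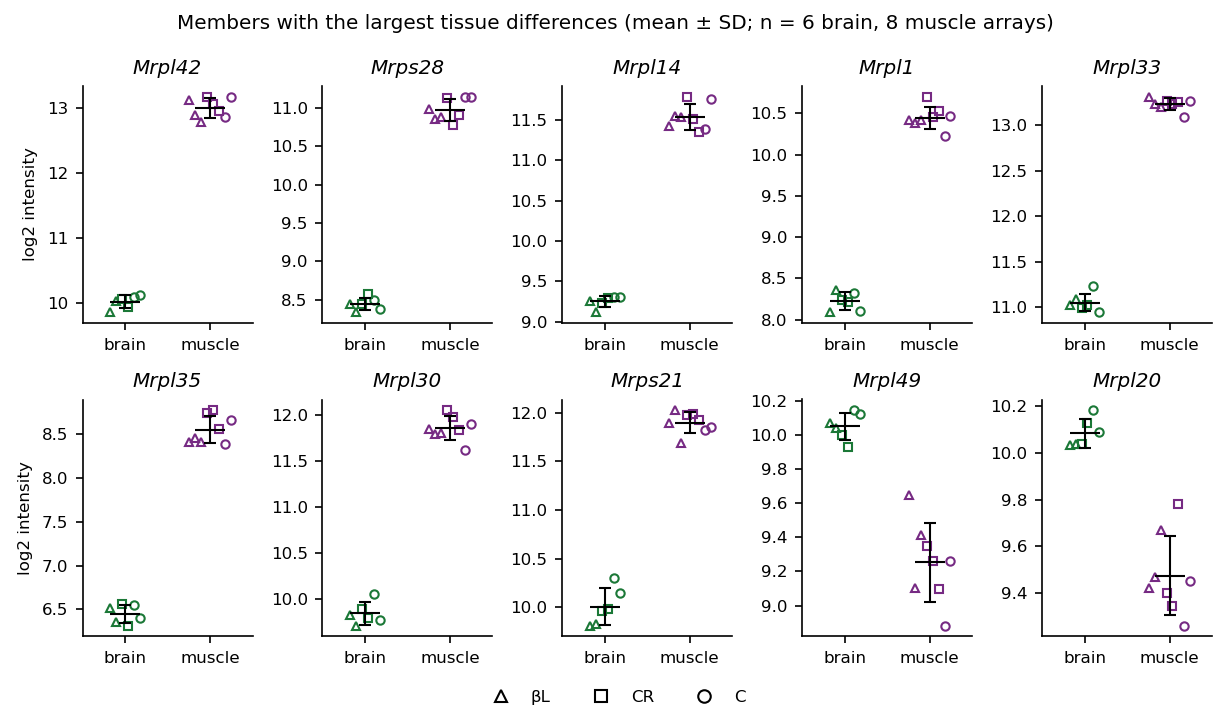
Log2 intensity on each array (triangles βL, squares CR, circles C) for the 8 members with the largest lower and the 2 with the largest higher difference whose tissues did not overlap, with brain left of muscle and bars for mean ± SD (n = 6 brain and 8 muscle arrays). For Mrpl42 the brain arrays lie at 9.87 to 10.13 and the muscle arrays at 12.78 to 13.17, and for Mrpl49 the brain arrays lie above the muscle arrays.

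The 3 members called higher in brain were Mrpl49, Mrpl20 and Mrpl57. Mrpl49, a mitochondria-specific protein of the large subunit, measured 9.93, 10.05 and 10.14 in brain and 8.88, 9.26 and 9.65 in muscle. Every brain array was above every muscle array, and the difference was 0.82 (SE 0.10, limma adjusted p = 5.8e-06). Its other probes did not show this. They differed by -0.16, -0.25 and -0.51, and the last was called lower. Mrpl20, whose bacterial counterpart is needed early in assembly of the large subunit, measured 10.03, 10.06 and 10.18 in brain and 9.26, 9.44 and 9.78 in muscle, a difference of 0.62 (SE 0.09). Mrpl57 differed by 0.53 (SE 0.13), but its tissues overlapped, with 6.78 to 7.25 in brain and 5.77 to 6.96 in muscle.

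Probes of a gene were not always alike. For 20 members more than 1 probe passed the filter, and of the 27 probes that were not the brightest, 18 were called lower in brain, 1 higher and 8 were not called. Their median difference was -0.50, against -0.69 for the brightest probes of the same genes. Mrpl49 and Mrps25 had probes called in opposite directions. The brightest probe of Mrps25 differed by -0.55, and the others by -0.25 and 0.38. Mrps26 differed by 0.05 with its brightest probe and by -0.17 with the other, and neither was called.

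The subunits and the lines of descent were alike in direction. In the large subunit 38 of 44 tested members were called lower in brain and 3 higher, with a median of -0.85. In the small subunit 20 of 23 were called lower and none higher, with a median of -0.86. Of 39 members with a bacterial counterpart 36 were called lower (median -0.99), and of 27 mitochondria-specific members 21 were (median -0.69). No difference between these classes was tested.

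Members around the peptidyl transferase centre differed widely in size of change. Mrpl2 was lower in brain by 1.34, at 9.26 ± 0.10 in brain and 10.61 ± 0.15 in muscle (SD, n = 6 and 8). Mrpl3 differed by -0.63 and Mrpl16 by -0.53. Mrpl27, whose bacterial counterpart reaches into the centre, was not called, with 10.27 to 10.57 in brain and 10.30 to 10.62 in muscle. Along the exit tunnel, through which the new chain leaves, Mrpl23 differed by -1.78, Mrpl47 by -1.51, Mrpl24 by -1.20, Mrpl22 by -0.77 and Mrpl17 by -0.65, and all were called. A separate, dimmer probe for Mrpl47 gave -0.36 and was not called. Mrpl45, which lies beside the tunnel exit and contacts the inner membrane, was near background and was not called (-0.23, SE 0.13).

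In the stalk that recruits translation factors, Mrpl12 was lower in brain by 0.99, Mrpl11 by 0.62 and Mrpl10 by 0.37, all called. A separate probe for Mrpl10, almost as bright, gave -0.02 and was not called. Of the proteins of the central protuberance, which faces the small subunit's head, Mrpl18 differed by -1.88, Mrpl40 by -1.21, Mrpl46 by -0.69, Mrpl38 by -0.57 and Mrpl48 by -0.47. These were called too, though a separate probe for Mrpl18, near background, gave -0.13 and was not called. Mrpl58, a peptidyl-tRNA hydrolase of the release factor family that is built into the large subunit, differed by -0.92 (SE 0.08) and Mrps30 by -1.16 (SE 0.07).

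Small-subunit members with a bacterial counterpart ranged between -2.55 for Mrps28 and -0.25 for Mrps6, which was not called. Mrps16 was lower in brain by 1.69, Mrps24 by 1.36, Mrps7 by 1.28 and Mrps12, a protein of the decoding centre, by 0.42. Among the mitochondria-specific ones, Mrps23 differed by -1.82, Mrps31 by -1.41 and Mrps35 by -1.26. Mrps33 and Mrps26 were not called. Mrps33 had 12.06, 12.11 and 12.30 in brain and 11.94, 12.10 and 12.31 in muscle, and Mrps26 differed by 0.05 (95% interval -0.12 to 0.22). The tissues overlapped in both.

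The tissue difference was present on each diet. On βL 55 members were called lower in brain and 2 higher (all genes 38.6% and 33.5%), with a median of -0.92. On CR 54 were called lower and 3 higher (38.4% and 33.5% of all genes), with a median of -0.85, and on C 54 and 2 (37.2% and 32.5%), with a median of -0.88. On all 3 diets 52 members were called lower and 59 lay below 0. Mrpl49 and Mrpl20 were called higher on each. Mrpl57 was called on CR alone, at 0.90 (limma adjusted p = 0.0029), against 0.26 on βL and 0.42 on C. Its muscle CR arrays lay at 6.546, 6.285 and 5.771, the last being the lowest of all 8 muscle arrays. The diet differences of Mrpl57 were not called as differing between the tissues.

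Among genes that work beside the mitoribosome, most members of 5 lists were called lower in brain, set against 44.6% of all genes, and a list of regulators was close to that share. Of 13 tested translation factors 12 were called lower (median -1.18), led by Gfm2, which recycles ribosomes (-2.60, SE 0.07), and Mtres1, a rescue factor (-2.03, SE 0.09). Of 12 mitochondrial aminoacyl-tRNA synthetases 9 were called lower (median -1.01), with Ears2 at -2.03 and Iars2 at -1.43. Of 17 assembly factors 14 were called lower and 1 higher (median -0.56). Eral1, a GTPase that binds the small subunit's RNA, differed by -1.68, while Dhx30, an RNA helicase, was higher in brain by 1.80 (SE 0.07). Of 14 genes of mitochondrial DNA expression 12 were called lower and 1 higher (median -0.86), with Tefm, the transcription elongation factor, at -2.92. Slirp, which stabilises mitochondrial mRNA, differed by -1.72. Mitoribosomal proteins with other names followed, with 5 of 6 called lower (median -0.83), among them Chchd1 at -1.84 and Mrps18b at -1.53. Of 6 tested regulators 3 were called lower (50%, median -0.23), and Esrra differed by -1.65 and Ppargc1b by -1.20.

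The most similar families stood on either side. Of 68 subunits of oxidative phosphorylation 62 were called lower in brain and 3 higher, with a median of -1.16. Of 53 cytosolic ribosomal proteins 22 were called lower and 16 higher, with a median of -0.01. The cytosolic median turned with the scaling of the arrays, being -0.84 with median scaling, -1.03 with scaling to the 75th percentile and 0.28 with cyclic loess. The median of the members was negative under each, at -1.04, -1.23 and -0.59, while the median of all genes was -0.12, -0.31 and -0.01. With cyclic loess 50 members were called lower and 6 higher.

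**Figure D3:**
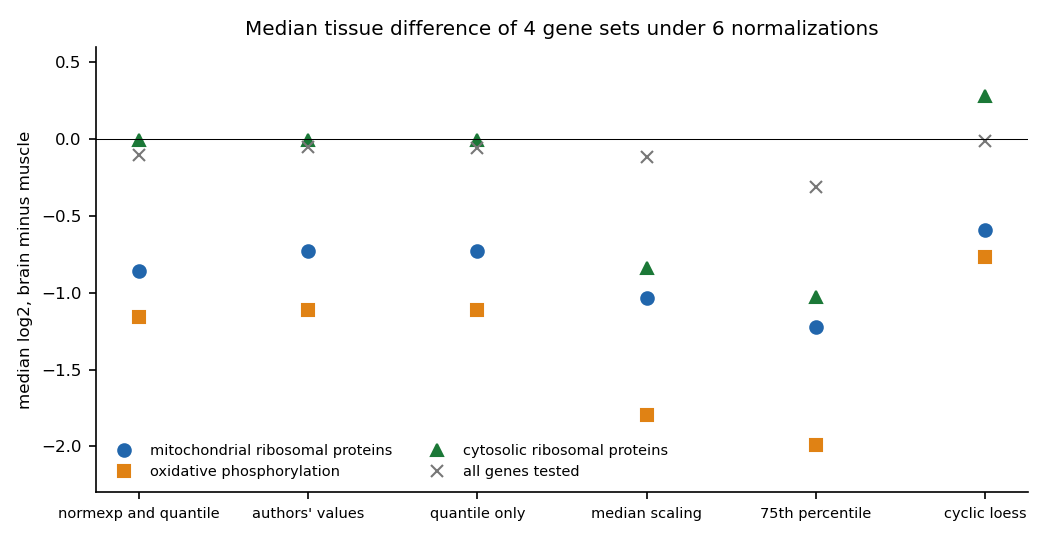
Median log2 difference, brain minus muscle, of the members, of oxidative phosphorylation, of cytosolic ribosomal proteins and of all genes under 6 ways of normalizing the arrays. The members lie between -0.59 and -1.23 under all 6, and the cytosolic ribosomal proteins between -1.03 and 0.28.

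Within the tissues, no member was called for any pair of diets by limma. In brain all 67 and in muscle all 66 of the 95% intervals lay within 1 log2 unit of 0 for each of the 3 diet pairs. A 2-fold change in normalized intensity thus lay outside all of them. Mrpl39 in both tissues and Mrpl45 in brain were near background, so that their intervals do not bound a change in their RNA. The median standard error of a member's difference was 0.09 in brain for each pair and 0.16 in muscle for βL or CR against C. For comparison, 33 of 9956 genes were called in brain for βL against C (0.331%), 23 for CR against C (0.231%) and 28 for βL against CR (0.281%). In muscle 2 of 8898 were called for βL against C (0.0225%), 2 for βL against CR (0.0225%) and none for CR against C (0%). The pairs of diets within a tissue share arrays. Before adjustment, p was under 0.05 in brain for 3 members for βL against C (8.73% of all genes), 1 for CR against C (8.15%) and 1 for βL against CR (9.36%). In muscle it was under 0.05 for 4 members for βL against CR (9.62% of all genes) and for none for βL against C (10.4%) or CR against C (5.12%).

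**Figure D4:**
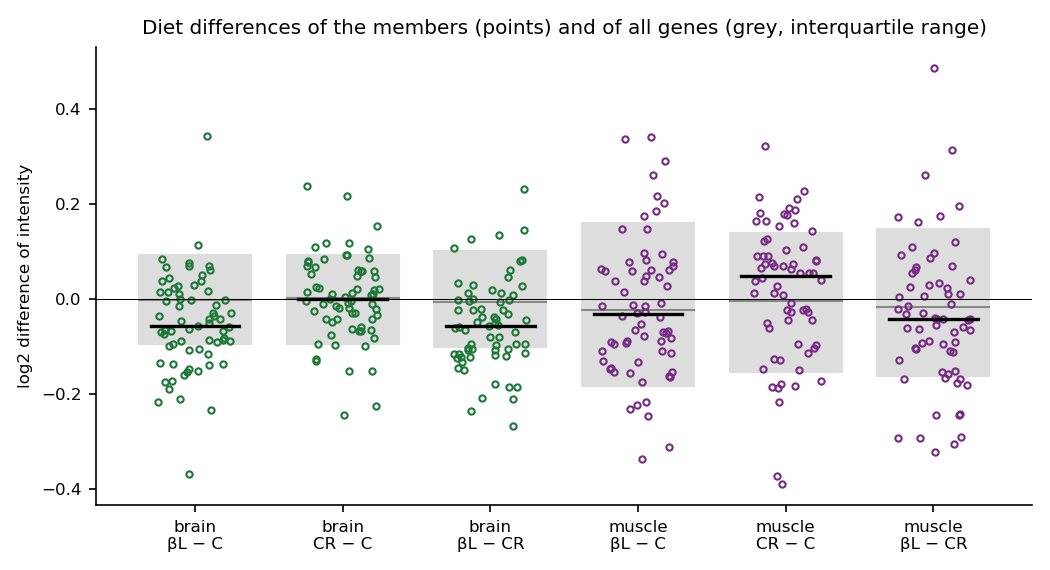
Log2 differences of the members for 3 diet pairs in brain (green) and muscle (purple), 1 point for each member, with a black line at their median. The grey box is the interquartile range of all genes tested, with a grey line at their median. The medians of the members lie between -0.06 and 0.05.

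In brain, the median difference of the members was -0.06 for βL against C and -0.06 for βL against CR, where the medians of all genes were -0.00 and -0.01. For CR against C it was -0.00, and that of all genes was 0.00. Below 0 were 48 of 67 members for βL against C (50.5% of all genes) and 51 for βL against CR (51.8%), with the same βL arrays in both. The mean over the members was 9.44 on both βL arrays, 9.51 and 9.48 on the CR arrays, and 9.51 and 9.47 on the C arrays. Both βL arrays had the lowest means of the 6. Without overlap, 20 members were lower and 4 higher on βL than on C (20.9% and 19.8% of all genes), and 21 lower and 6 higher on βL than on CR (21.3% and 18.9%). Between CR and C 8 were lower and 14 higher on CR (18.6% and 19.1%). Markers of other cell types also differed between the diets. The summed intensity before normalization of 5 genes that mark choroid plexus was 25910 and 24100 on the βL arrays, 4366 and 4223 on the CR arrays, and 14970 and 12060 on the C arrays. Of these genes 4 were called higher on βL than on C, and Ttr, the transthyretin gene, differed by 1.10 there. The 4 red-cell genes summed to 10400 and 10550 on the βL arrays, 5059 and 4732 on the CR arrays, and 6700 and 6006 on the C arrays, and 1 of the 2 tested, Hba-a1, an alpha-globin gene, was called higher on βL than on C (0.94). The 5 macrophage genes summed to 2630 and 2531 on βL, 3247 and 3058 on CR, and 4698 and 3836 on C, and 1, the lysozyme gene Lyz2, was called lower on βL than on C (-1.24). The part of these cell types in the members' values was not tested.

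Mrps21 had the largest decrease of the members in brain on βL. It measured 9.88 and 9.90 on βL, 10.03 and 10.05 on CR, and 10.33 and 10.19 on C. Every βL array was below every CR array, and these were below both C arrays. Against C, the difference was -0.37 on βL (SE 0.09, limma adjusted p = 0.30) and -0.22 on CR (SE 0.09, adjusted p = 0.58). With the authors' normalized values it was called on βL at an adjusted p of 0.047, the lowest of 19 alternatives, which ranged up to 0.80. In muscle Mrps21 did not show this order, with 12, 12.14 and 11.78 on βL, 12.09, 12.11 and 12.03 on CR, and 11.91 and 11.96 on C.

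Mrpl39, which was near background, had the largest increase. Its log2 intensity was 5.71 and 5.53 on βL, 5.66 and 5.33 on CR, and 5.36 and 5.20 on C, and the difference of βL from C was 0.34 (SE 0.14, adjusted p = 0.56). The next lower members on βL were Mrpl36 at -0.23 and Mrpl27 at -0.22, and the next higher were Mrpl3 at 0.11 and Mrpl54 at 0.09. Mrpl3 was 0.017 without replicate 1 of the brain βL group and 0.21 without replicate 2, and Mrpl54 turned to -0.05 when replicate 2 of the brain C group was left out. For CR against C, Mrpl3 (0.24), Mrpl39 (0.22) and Mrpl38 (0.15) were highest, and Mrpl51 (-0.24), Mrps21 (-0.22) and Mrpl52 (-0.15) lowest. Without replicate 1 of the brain CR group Mrpl3 was 0.10, Mrpl39 was 0.05 and Mrpl38 was 0.08, without replicate 2 of the brain C group Mrpl51 was -0.10, and without its replicate 1 Mrpl52 was -0.10. For βL against CR, Mrpl51 (0.23), Mrps17 (0.15) and Mrps31 (0.14) were highest, and Mrpl9 (-0.27), Mrpl45 (-0.24) and Mrps35 (-0.21) lowest. Single arrays moved these sizes too. Without replicate 1 of CR, Mrpl51 was 0.11 and Mrps31 was 0.06, without replicate 2 of CR Mrpl45, which is near background, was -0.48, without replicate 2 of βL Mrps17 was 0.04, and without replicate 1 of βL Mrps35 was -0.13. The difference of Mrpl9 was -0.09 without replicate 1 of the brain βL group, which lay at 9.73, against 10.09 on the other βL array and 10.16 and 10.19 on the CR arrays.

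In muscle, the median of the members was -0.03 for βL against C, 0.05 for CR against C and -0.04 for βL against CR, where all genes had -0.02, -0.00 and -0.02. Without replicate 1 of the muscle C group the medians against C were -0.07 for βL and -0.02 for CR, and without its replicate 2 they were -0.0011 and 0.07. The mean over the members was 10.38 to 10.39 on the βL arrays, 10.39 to 10.49 on the CR arrays, and 10.37 and 10.44 on the C arrays, and these ranges overlapped. For βL against C 9 members were lower and 2 higher without overlap (12.5% and 11% of all genes). For βL against CR it was 9 and 1 (8.29% and 7.5%), and for CR against C 5 and 4 (9.78% and 9.25%). The 4 red-cell genes summed before normalization to an intensity of 45540 to 62140 on the βL arrays, 17600 to 26000 on the CR arrays, and 17750 and 24910 on the C arrays. None of the 3 tested was called, with Hba-a1 at 1.40 for βL against C (adjusted p = 0.12). The 5 macrophage genes summed to 4175 to 8302 on βL, 2112 to 3243 on CR, and 2787 and 3950 on C, and none was called. The 8 slow-fibre genes summed to 99940 to 213800 on βL, 34830 to 150800 on CR, and 2289 and 162700 on C. The 6 white-adipocyte genes summed to 6024 to 12850 on βL, 3989 to 7302 on CR, and 2168 and 6536 on C. The part of these cells and fibres in the members' values was not tested.

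Mrpl57 had the widest range in muscle. It measured 6.31, 6.21 and 6.65 on βL, 6.23, 5.97 and 5.52 on CR, and 6.42 and 6.18 on C. The difference of βL from CR was 0.49 (SE 0.20, adjusted p = 0.51), with overlap between a βL and a CR array, and that of CR from C was -0.39 (SE 0.23). Without replicate 3 of the CR group the values were 0.30 and -0.20. With other ways of processing they ranged from 0.1788 to 0.6098 and from -0.4427 to -0.1383. Mrpl52, a mitochondria-specific protein of the large subunit, was the one member that lay higher without overlap on βL than on CR, with 9.56, 9.64 and 9.83 on βL, 9.50, 9.36 and 9.22 on CR, and 9.40 and 9.37 on C. It differed by 0.31 (SE 0.14, adjusted p = 0.51) from CR and by 0.29 (SE 0.15, adjusted p = 0.55) from C. Mrps31 and Mrpl4 lay lower on βL than on CR. Mrps31 had 11.35, 11.43 and 11.43 on βL, against 11.74, 11.73 and 11.66 on CR (-0.31, SE 0.13), and Mrpl4 had 8.86, 8.86 and 8.75 on βL, against 9.16, 9.20 and 9.08 on CR (-0.32, SE 0.12). Mrpl9 differed by -0.29, and Mrpl39, which was above background on only 2 of the 8 muscle arrays, by 0.26 (0.10 without replicate 2 of CR). None of these passed the adjustment (adjusted p = 0.46 or above over the 66 members).

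Against C, Mrpl49 (0.34) had the largest increase in muscle on βL that was measured above background, since Mrpl39, also at 0.34, lay at background on most of the arrays. The lowest were Mrpl28 (-0.34), Mrpl51 (-0.31, and -0.13 without replicate 3 of βL) and Mrps28 (-0.25). Mrpl28 measured 11.68, 11.56 and 11.55 on βL, against 12.17 and 11.70 on C. The higher of these was replicate 1, without which the difference was -0.10. Likewise Mrpl49 differed by 0.13 and Mrpl39 by 0.57 without that array. Mrps28 measured 11.02, 10.88 and 10.92 on βL, 11.17, 10.80 and 10.94 on CR, and 11.18 and 11.19 on C, so that both C arrays were above all others. For CR against C, Mrps35 (0.32), Mrpl1 (0.23) and Mrpl30 (0.22) were highest, and were 0.14, 0.09 and 0.06 without replicate 1 of C. Mrpl57 (-0.39), Mrpl51 (-0.37) and Mrps28 (-0.22, and -0.13 without replicate 2 of CR) were lowest.

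**Figure D5:**
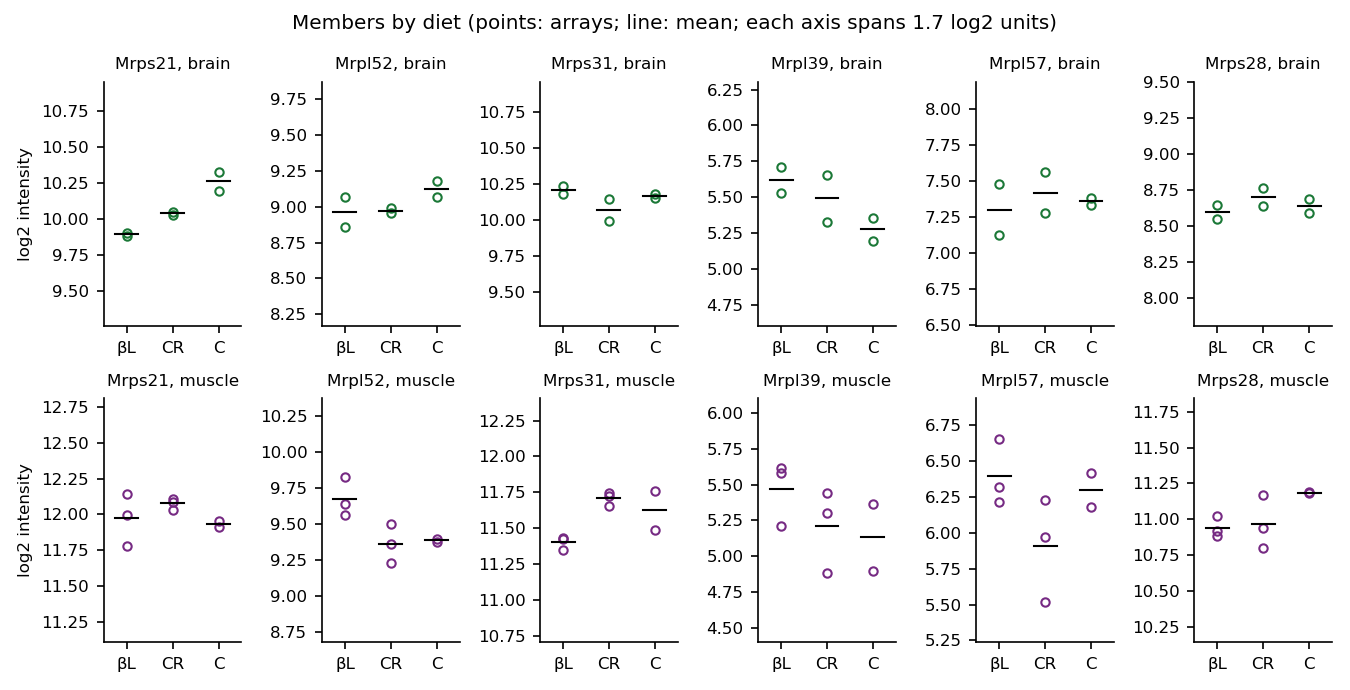
Log2 intensity on each array by diet for 6 members in brain (top) and muscle (bottom), with a line at the mean of each diet and the same span on every axis. Mrps21 in brain has both βL arrays lowest (9.88 and 9.90) and both C arrays highest (10.33 and 10.19), and no member was called.

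No member's diet difference was called as differing between the tissues. The interaction was called for 4 of 10827 genes for βL against C (0.0369%), 1 for CR against C (0.00924%) and 9 for βL against CR (0.0831%). Unadjusted p was under 0.05 for 2 members for βL against C (7.73% of all genes), 1 for CR against C (4.77%) and 1 for βL against CR (6.98%). The median interaction of the members, brain minus muscle, was -0.04, -0.03 and -0.02 for these pairs in the same order. Without replicate 1 of the muscle C group it was -0.0016 for βL against C and -0.0081 for CR against C. The genes that work beside the mitoribosome gave no diet call in either tissue. Ppargc1a and Ppargc1b, coactivators of mitochondrial biogenesis, differed by -0.64 (SE 0.23, adjusted p = 0.40) and -0.48 (SE 0.15, adjusted p = 0.38) in muscle on βL against C.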

How the data were processed

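Labelled RNA of 14 samples was hybridised to Illumina Sentrix Mouse-8 v2 BeadChips. Per the file headers and the study's methods, the authors deposited the mean bead intensity of each probe before normalization, made with BeadStudio, and the same intensities after quantile normalization over all arrays. BeadStudio also gave a detection p-value for each probe and array against negative control beads, as deposited. Beads behind each value are not given, so the precision of a single value is not known. The small number of arrays limits precision as well.

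The intensities before normalization were background-corrected (normexp with offset 16, taking the negative controls' level from the detection p-values), quantile-normalized within brain or muscle for diets and over all 14 arrays for tissues, and put on a log2 scale with limma 3.58.1 in R 4.3.3. Genes needed a detection p-value below 0.05 on at least 2 arrays and were represented by their brightest probe. Of 25697 probes, 23978 have 1 gene symbol in the platform annotation, none has several and 1719 have none. Diets (βL against C, CR against C, βL against CR), tissues and their interaction were tested with lmFit and eBayes, with Benjamini-Hochberg adjustment over all genes tested. The script was tested on simulated data.

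Members, gene lists and motifs were chosen with earlier results of these data known. Members were named by rule: in a diet comparison those called and the 3 highest and 3 lowest differences, between tissues the 8 most positive and 8 most negative called members whose tissues did not overlap, untested members, and up to 2 genes of each other list with the smallest p. Members grouped by their place in the ribosome, and others outside this rule, were chosen after their values were seen. Alternatives changed the background correction, offset, filter, normalization, probe choice, spread, test, replicate block and arrays included. Scaling to the 75th percentile was added after seeing the data.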

Additional observations from a re-analysis of the deposited data

Results flagged for a closer look

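For 3 of the members named in the diet comparisons a difference ran without overlap in one direction in brain and in the opposite direction in muscle. Mrps21 was lower on CR than on C in brain (-0.22) and higher in muscle (0.14), Mrpl52 was lower on βL than on C in brain (-0.16) and higher in muscle (0.29), and Mrps31 was higher on βL than on CR in brain (0.14) and lower in muscle (-0.31). The difference between the tissues itself was not called by limma in any of them (adjusted p = 0.995 for Mrps21, 0.57 for Mrpl52 and 0.54 for Mrps31). Over all 66 members tested in both tissues, such opposite differences were found in 2 for βL against C (3.03%), 2 for CR against C (3.03%) and 1 for βL against CR (1.52%), against 5.34%, 3.7% and 3.33% of all 8089 genes tested in both. For the members named between the tissues, no value lay far from the other arrays of its tissue by Dixon's test in 20 sets of values, which does not cover the genes in which replicate 1 of the muscle C group stood apart.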

How the results depend on the processing

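The median difference of the members between brain and muscle kept its sign under every alternative. It was -0.73 without background correction and with the authors' normalized values, -0.82 with an offset of 50, -0.76 without a filter, -0.92 with probes above background on every array, -1.04 with median scaling, -0.59 with cyclic loess, -1.23 with scaling to the 75th percentile and -0.71 over every probe. Sizes of single members moved as well, with Mrpl33 between -2.918 and -1.708 and Mrpl35 between -2.115 and -1.378. Members called higher in brain were 6 with cyclic loess. That setting also turned the direction of Mrpl43 and Mrps34 and lost 8 calls (Mrpl10, Mrpl28, Mrpl36, Mrpl43, Mrps2, Mrps11, Mrps12 and Mrps34). Median scaling turned Mrps2, and with it, as with scaling to the 75th percentile, Mrpl27, Mrps26 and Mrps33 turned too. These genes were uncalled and slightly above 0 with the main processing, and turned to lower in brain. Median scaling called Mrpl27 and Mrps33 lower, and scaling to the 75th percentile called all of them lower. With cyclic loess the same genes kept their sign and were called higher. Of all genes called, 53.9% were lower in brain, against 62.5% with probes above background on every array 61.5% with scaling to the 75th percentile and 49.8% with cyclic loess.

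Median scaling moved the members' median in brain to -0.12 for βL against C, -0.17 for βL against CR and 0.041 for CR against C, in muscle to -0.11 for CR against C and 0.084 for βL against CR, and in the interaction to -0.25 for βL against CR and 0.15 for CR against C. The medians of all genes under that setting were -0.06, -0.09, 0.03, -0.12, 0.11, -0.17 and 0.12 for the same comparisons in that order. Scaling to the 75th percentile moved it to -0.085 in brain for βL against CR, to -0.10 and -0.0019 in muscle for βL and CR against C, and to 0.029 and 0.011 in the interaction for βL and CR against C, where all genes had -0.0062, -0.064, -0.012, 0.060 and -0.025. The authors' normalized values gave 1 call in brain for βL against C, Mrps21. No other diet alternative gave a call. The methods' t-test, after Benjamini-Hochberg adjustment, was among these.

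Leaving out one array at a time, the median lay between -0.90 and -0.81 for brain against muscle and between -0.079 and 0.0033 for the interaction of βL against C. In brain it lay between -0.079 and -0.033 for βL against C, between -0.070 and -0.020 for βL against CR, and between -0.024 and 0.030 for CR against C. In muscle it lay between -0.069 and -0.0011 for βL against C, between -0.069 and -0.014 for βL against CR, and between -0.017 and 0.074 for CR against C. Deviations of same-numbered arrays of different diets within a tissue correlated at -0.228 to 0.181. Between the tissues on the same diet they correlated at -0.0438 to 0.0342. The latter cannot decide whether same-numbered arrays of the tissues came from the same mouse, since tissues of a mouse need not deviate alike. The arrays were treated as unpaired. With the replicate block 56 members were called lower in brain, at a median of -0.89, and no diet call changed. A slide block was not run, since no slide is given in the files' headers.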
